A study of Nannochloropsis oceanica with 10 samples.

Results

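The comparison described here is the transcript response of the wild type (WT) of *Nannochloropsis oceanica* IMET1 to 6 h of high light (HL). It used 6 of the 30 mRNA-Seq libraries of the study, the 3 WT libraries taken after a night in the dark (dark a, b and c) and the 3 taken after 6 h of HL (6 h a, b and c). They were chosen by the strain and time of their labels, and were normalized together from the deposited read counts. Cultures of this unicellular marine alga had grown at 25 °C in light of 50 µmol photons m−2 s−1, spent a night in the dark and were then moved to a photon flux of 200 in the same unit. The study also sampled 1, 96 and 144 h of HL, and sampled *hlr1*, a single insertion line with the cassette in an exon of *g4928* (*HLR1*), a light-harvesting protein of photosystem I, at the same times. The letters were taken as independent cultures, as the design describes them, and p-values measure the spread between these libraries. No library came from WT cells kept in the dark, or in growth light, for the same 6 h. The change of light from growth light to HL, the end of the night and the hours that passed therefore cannot be told apart here.

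*Nannochloropsis* belongs to the eustigmatophytes, relatives of diatoms and brown algae whose plastid descends from a red alga, and whose antenna proteins bind chlorophyll *a* without chlorophyll *b* or *c*. When light exceeds what carbon fixation can use, algae commonly dissipate the excess as heat through LHCX-type antenna proteins and xanthophylls, repair photosystem II and scavenge reactive oxygen. Light after darkness also resets the daily programme of a photosynthetic cell, in which nitrogen uptake, lipid synthesis, ribosome production, DNA replication and division each take their own time of day. Species of this genus are known for storing oil and for making long-chain polyunsaturated fatty acids in plastid and endoplasmic reticulum.

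Of 10363 genes, 9461 had enough counts to be tested, and 2422 (25.6%) were called, at an adjusted p under 0.05 from edgeR's quasi-likelihood test and a fold change over 2. There were 846 genes higher after 6 h of HL (8.94%) and 1576 lower (16.7%). The median log2 fold change of all tested genes was 0.10. In 3113 tested genes (32.9%) every 6 h library was above every dark library, and in 2457 (26%) every 6 h library was below. Most genes named below were chosen for such a lack of overlap, so that its mention describes them and adds no support. More than 4-fold changes were found in 538 of the higher and 766 of the lower genes, and more than 16-fold changes in 338 and 220. Genes that fell had been abundant, with a median of 199.8 CPM (counts divided by the TMM-scaled library size) in the dark and 48.7 CPM at 6 h, whereas those that rose had a median of 15.2 CPM in the dark and 83.2 at 6 h. A share of 40.1% of the risers and 36.1% of the fallers had no informative description, beside 38.7% of all tested genes. These are shares of all counted transcripts, so that fewer transcripts of a gene and a larger pool of other transcripts cannot be told apart.

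The 3 libraries of 6 h resembled each other far more than those of the dark did. Pearson's r across genes of log2 CPM lay between 0.984 and 0.99 at 6 h and between 0.685 and 0.908 in the dark. Library totals ran from 4424898 to 7019039 counts. Dark a held a count for 9768 genes, dark b for 8012 and dark c for 7861, against 9864 to 9912 at 6 h. Of 8398 well-expressed genes, 11.6% were at 0 in dark b and 12.6% in dark c, whereas 0.393% were at 0 in dark a. Dark c also carried 15.2% of its counts in only 4 genes, whose share was 0.781% or less in the other 5 libraries. Values of each library are therefore given for many of the named genes, and only the fold change for others. Numbers of calls are also given with dark a as the only dark library, where the lone library was taken to vary like the 6 h group. With dark a alone, 799 of the 846 genes that rose (94.4%) and 1439 of the 1576 that fell (91.3%) were called the same way. Among the 846 risers 256 were at 0 in both dark b and dark c, and 112 of these also in dark a. Over all 9461 tested genes 865 were at 0 in dark b and c, and the same 112 in all 3 dark libraries. Genes missing from dark b and c were thus more frequent among the risers than among all tested genes.

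The balance of rises and falls depended on how the libraries were scaled. The TMM scaling used here set the factors of the dark libraries to 0.723 to 0.821 and those of 6 h to 1.28 to 1.29. Division by library totals alone moved the median of all genes from 0.10 to 0.82 and gave 1782 higher (18.8%) and 813 lower genes (8.59%), while upper-quartile scaling gave 1118 and 1188. The same 837 genes were higher (8.85% of those tested) and the same 811 lower (8.57%) under all 6 scalings tried, which is about 1 fall in 2. TMM gave the lowest median log2 fold change of the 6, and the others ran from 0.33 to 0.82. The other scalings thus moved genes upwards, so that a rise could hardly lose its call. These counts therefore put only the falls to the test. Fold changes below are to be read against the shift of all genes, and for groups of genes the count that held under all 6 scalings is printed beside the first one. Gene span moved with the fold changes as well. In the fifth of genes with the shortest span (271 to 1317 bp) the median log2 fold change was −0.26, and in the longest (3711 to 27535 bp) it was 0.42. Its part in the results was not tested.

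**Figure D1:**
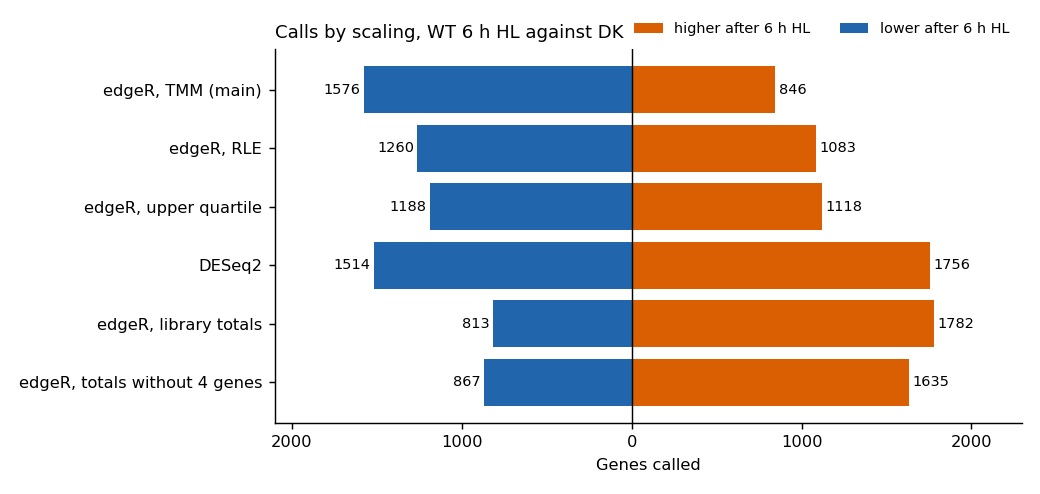
Numbers of genes called lower (left, blue) and higher (right, orange) after 6 h of HL than in the dark in WT under 6 ways of scaling the libraries; bars show counts of genes. Lower genes go from 1576 with TMM to 813 with library totals, and higher genes from 846 to 1782.

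**Figure D2:**
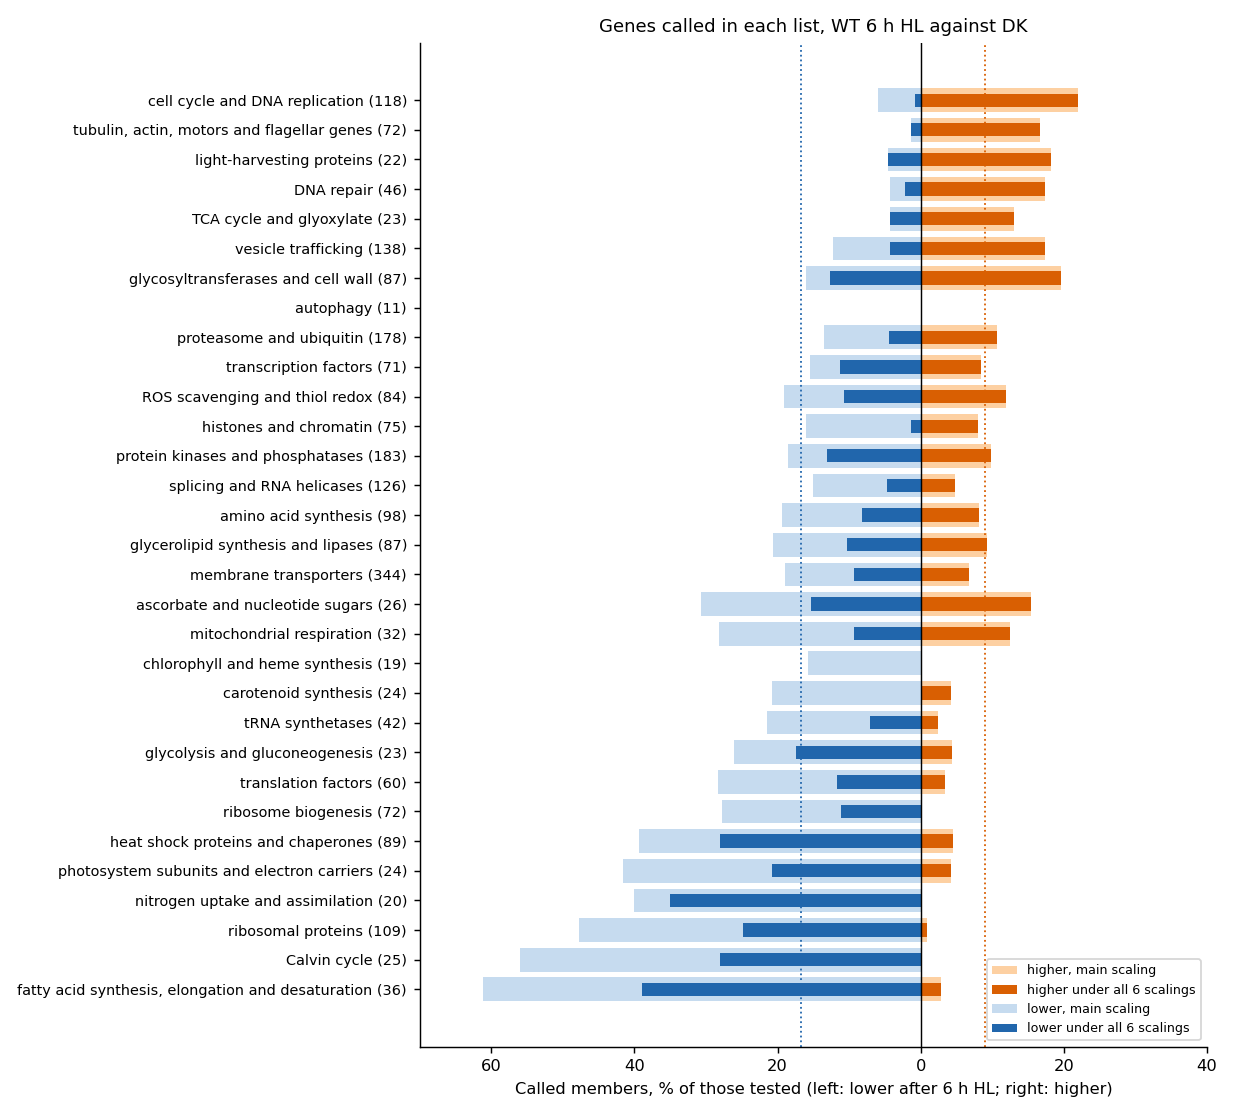
Share of the tested members of each list that was called lower (left) or higher (right) after 6 h of HL in WT, in %, with the number tested in parentheses; pale bars are the TMM scaling, dark bars calls that held under all 6 scalings, and dotted lines the shares of all tested genes (16.7% lower, 8.94% higher). Fatty acid synthesis, with 22 of 36 members lower, stands at the bottom and cell cycle and DNA replication, with 26 of 118 higher, at the top.

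The largest falls brought well-expressed genes close to 0. *g6926*, annotated as a cellulose synthase, the enzyme family that makes the glucan of the algal wall, stood at 829, 1070.1 and 1473 CPM in dark a, b and c and at 4.13, 5.76 and 4.64 CPM in the 6 h libraries, a log2 fold change of −7.85 ± 0.33 (edgeR adjusted p = 5.56e-05). *g3817*, a calcium-dependent protein kinase, had 380.5, 229 and 461 CPM in the dark and 2.19, 1.76 and 1.04 CPM at 6 h, a log2 fold change of −7.73 ± 0.44 (edgeR adjusted p = 9.77e-05). Neither gene had a 6 h library anywhere near its dark range. *g8091*, an ABC transporter of the G subfamily, fell from 213, 262 and 229 CPM to 0.608, 1.76 and 1.74 CPM, a log2 fold change of −7.40 ± 0.43 (edgeR adjusted p = 0.0001), and a relative of it, *g2982*, from 44.8, 69.5 and 45.7 to 0.608, 0.235 and 0.580 CPM, a log2 fold change of −6.76 ± 0.70 (edgeR adjusted p = 0.00082). Proteins of this subfamily carry lipids and other hydrophobic molecules across membranes.

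A pair of genes with a CRAL-TRIO domain, which binds small lipophilic molecules such as carotenoids, tocopherol and phosphoinositides, were nearly silent at 6 h. *g1540* had 124, 71.2 and 109 CPM in the dark and 0, 0.235 and 0.116 CPM after 6 h of HL, with 1400 counts in the dark libraries and 3 in those of 6 h. Its level in the dark was 866 (95% interval 296 to 4206) times that at 6 h, an interval that covers counting error only. *g5436* had 80.2, 115 and 150.1 CPM in the dark and 0.608, 0.235 and 0 CPM at 6 h, a log2 fold change of −8.60 ± 0.88 (edgeR adjusted p = 0.000806). The dark and 6 h libraries did not overlap for either gene. *g2548*, with the cysteine-rich domain of trypsin inhibitors, went from 175, 197 and 292 CPM to 0.122, 0.823 and 0.116 CPM, a log2 fold change of −9.21 ± 0.68 (edgeR adjusted p = 0.000236). *g25* is described as a mitochondrial succinate-fumarate transporter, but its KEGG entry is that of a mitochondrial citrate transporter. It had 53.8, 33.6 and 17.2 CPM in the dark and no count at 6 h, at least 324-fold lower when the 6 h libraries together are given the floor of 3 counts.

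The largest rises started from no count at all in the dark. *g3751*, a protein kinase whose KEGG entry is that of the NIMA-related family, named for a mitotic kinase of fungi, had no count in any dark library and 49.1, 47.2 and 49.3 CPM at 6 h, at least 221-fold higher against the floor of 3 counts over the dark libraries. *g2220*, annotated as PLK4, the polo-like kinase that in animals starts the duplication of centrioles, had none in the dark and 38.6 to 49.7 CPM in the 6 h libraries, at least 194-fold higher. *g1109*, aurora kinase A, a mitotic kinase of the spindle poles, went from none to 28.6, 37.5 and 35.9 CPM, at least 155-fold higher. All 3 genes were absent from each dark library, including dark a, and present in each 6 h library. *g9965*, a CDP-diacylglycerol synthase, which makes a precursor of phospholipids, rose from none to 24.7, 28.7 and 32.6 CPM, at least 131-fold. *g5105*, a sulfotransferase, rose from none to 31.1, 28.2 and 28.9 CPM, at least 134-fold. The calls of *g9965* and *g5105* were lost when the letters a, b and c were entered as a replicate block (edgeR adjusted p = 0.0586 and 0.0571).

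Nitrogen uptake and assimilation had falls and no rise. Of 20 tested members, 8 fell and none rose, 7 of them under all 6 scalings, with a median log2 fold change of −0.99 beside 0.10 for all genes. The fallers made up 40%, against 16.7% of all tested genes. *g7989*, the high-affinity nitrate transporter that brings nitrate into the cell, stood at 1048, 1277 and 1278 CPM in the dark and 48.4, 50.5 and 47.3 CPM at 6 h, a log2 fold change of −4.62 ± 0.16 (edgeR adjusted p = 3.63e-05). Next to it in the genome on scaffold 271 and on the other strand (263203 to 267456, against 268111 to 270893 for the transporter, in the authors' assembly) lies *g7988*, nitrate reductase, which makes nitrite from nitrate. Its level went from 534, 557 and 471 CPM to 59.3, 64.6 and 54.3 CPM, a log2 fold change of −3.13 ± 0.16 (edgeR adjusted p = 7.67e-05). *g3438*, nitrite reductase, which makes ammonium in the plastid, went from 2031, 2092 and 3225 CPM to 314, 339 and 348 CPM, a log2 fold change of −2.87 ± 0.23 (edgeR adjusted p = 0.000309). For all 3 steps the lowest dark library was several times above the highest 6 h library.

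Several transporters of other nitrogen sources are given next, some of them chosen after their values were seen. *g7791*, an ammonium transporter, had 1447, 2158 and 3142 CPM in the dark and 400.1, 483 and 526 CPM at 6 h, a log2 fold change of −2.26 ± 0.31 (edgeR adjusted p = 0.00255). *g545*, a formate and nitrite transporter, had 96.2, 129 and 140.1 CPM in the dark and 20.8, 21.3 and 24.8 CPM at 6 h, a log2 fold change of −2.45 ± 0.26 (edgeR adjusted p = 0.000876). *g6826*, a homologue of the plastid nitrite transporter NAR1, fell from 118, 131 and 99.1 CPM to 50.2, 52.2 and 54.3 CPM, a log2 fold change of −1.15 ± 0.21 (edgeR adjusted p = 0.00812). The groups did not overlap for any of these 3 transporters. *g6410*, a symporter of urea and sodium, had 84.1, 156 and 357 CPM in the dark, a wide spread, and 28.1, 36.2 and 30.9 CPM at 6 h, a log2 fold change of −2.65 ± 0.53 (edgeR adjusted p = 0.012). The enzymes that put ammonium into amino acids were not called. Glutamine synthetase (*g6874*) was at 1443, 1469 and 2464 CPM in the dark and 1305, 1190.0 and 1097 CPM at 6 h, a log2 fold change of −0.58 ± 0.25 (edgeR adjusted p = 0.128), and glutamate synthase (*g4703*) had a log2 fold change of −0.79 ± 0.17, edgeR adjusted p = 0.0155, under the 2-fold threshold. The call of *g6410* was lost without 6 h a or 6 h c (log2 −2.62 to −2.56). *g6826* lost its call without dark a, dark b, 6 h a, 6 h b or 6 h c (log2 −1.17 to −0.96) and with DESeq2, RLE scaling, upper-quartile scaling, library totals or library totals without the 4 abundant genes (log2 −0.92 to −0.44).

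Synthesis, elongation and desaturation of fatty acids fell in most tested members. Of 36 tested members, 22 fell and 1 rose, with 14 and 1 under all 6 scalings, and the median log2 fold change was −1.47. The fallers made up 61.1%, against 16.7% of all tested genes. With dark a alone, 24 fell and 3 rose. The first committed step is acetyl-CoA carboxylase, which makes malonyl-CoA. *g7511*, so annotated and like the other genes of this paragraph chosen after the values were seen, had 2086, 1356 and 1756 CPM in the dark and 234, 269.7 and 263 CPM at 6 h, a log2 fold change of −2.76 ± 0.20 (edgeR adjusted p = 0.000236). *g6828*, which passes the malonyl group to acyl carrier protein, went from 541, 478 and 218 to 83.6, 84.7 and 78.3 CPM, a log2 fold change of −2.33 ± 0.34 (edgeR adjusted p = 0.00351). *g8791*, acyl carrier protein itself, on which the growing chain is held, went from 2401, 2516 and 1714 to 307, 294 and 256 CPM, a log2 fold change of −2.95 ± 0.21 (edgeR adjusted p = 0.00019). For these 3 genes no 6 h library reached the dark range. The condensing enzyme *g4061* (beta-ketoacyl synthase) had a log2 fold change of −2.80 ± 0.34, the reductase *g5746* of −1.53 ± 0.25 and the enoyl reductase *g5253* of −1.09 ± 0.19, with edgeR adjusted p = 0.00163, 0.00522 and 0.00643. For *g5746* the call did not hold with library totals or library totals without the 4 abundant genes (log2 −0.89 to −0.83). The call of *g5253* was lost without dark a (log2 −0.77) and with a minimum of 100 counts, DESeq2, RLE scaling, upper-quartile scaling, library totals or library totals without the 4 abundant genes (log2 −0.97 to −0.38).

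The largest falls of the list were found in genes of chain building and desaturation. *g5643*, a fatty-acyl elongase, which lengthens chains in the endoplasmic reticulum, had 1215, 1220.0 and 1207 CPM in the dark, nearly the same in each library, and 25.4, 25.6 and 28.7 CPM at 6 h, a log2 fold change of −5.51 ± 0.15 (edgeR adjusted p = 3.63e-05). *g1923*, a polyketide synthase, a family that builds carbon chains by the same chemistry, had 913, 762 and 1396 CPM in the dark and 34.8, 31.5 and 44.4 CPM at 6 h, a log2 fold change of −4.79 ± 0.31 (edgeR adjusted p = 0.000133). *g1711*, described as a plastid desaturase of the FAD4 kind, which in *Arabidopsis* acts on the palmitate of phosphatidylglycerol, went from 88.7, 88.9 and 31.9 CPM to 1.82, 2.94 and 2.90 CPM, a log2 fold change of −4.76 ± 0.61 (edgeR adjusted p = 0.00203). Dark c was the lowest dark library for *g1711* and still far above the 6 h range. *g8736*, a 3-oxoacyl synthase, went from 634, 824 and 396 CPM to 51.2, 36.6 and 29.8 CPM, a log2 fold change of −3.98 ± 0.36 (edgeR adjusted p = 0.000486).

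Desaturases that act in sequence towards polyunsaturated fatty acids fell too, again members chosen after the values were seen. The delta-12 desaturase *g4967*, which makes linoleic from oleic acid, had 906, 755 and 357 CPM in the dark and 76.6, 76.2 and 74.6 CPM at 6 h, a log2 fold change of −3.15 ± 0.35 (edgeR adjusted p = 0.00118). For the delta-6 desaturase *g4033* the log2 fold change was −1.85 ± 0.30 (edgeR adjusted p = 0.00566) and for the delta-5 desaturase *g2747* it was −1.29 ± 0.31 (edgeR adjusted p = 0.0221). *g2635*, annotated as a stearoyl desaturase, had 1703, 1562 and 1037 CPM in the dark and 244, 276 and 295 CPM at 6 h, a log2 fold change of −2.40 ± 0.23 (edgeR adjusted p = 0.000581). *g2747* lost its call without dark a, dark b, 6 h a, 6 h b or 6 h c (log2 −1.29 to −0.98) and with upper-quartile scaling, library totals or library totals without the 4 abundant genes (log2 −1.01 to −0.60). The exception was an elongase of very long chains, *g9743*, with 36.1, 35.1 and 41.3 CPM in the dark and 90.8, 99.9 and 106 CPM at 6 h, a log2 fold change of 1.40 ± 0.22 (edgeR adjusted p = 0.00513). For *g9743* the call did not hold without 6 h c (log2 1.36).

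Genes of glycerolipid synthesis and lipases were called in shares near those of all genes. Of 87 tested members, 8 rose and 18 fell (9.20% and 20.7%, against 8.94% and 16.7% of all tested genes), 8 and 9 of them under all 6 scalings, and the median of 0.19 was close to that of all genes. Described only as acyl transferase, acyl hydrolase or lysophospholipase, *g2582* fell from 427, 325 and 420.3 CPM to 16.2, 15.2 and 15.8 CPM, a log2 fold change of −4.64 ± 0.19 (edgeR adjusted p = 5.31e-05), and *g4007* from 44.8, 55.9 and 34.7 CPM to 0.122, 0 and 0.348 CPM, a log2 fold change of −8.00 ± 1.13 (edgeR adjusted p = 0.00294). *g9832*, annotated as a CDP-diacylglycerol pyrophosphatase, went from 42.2, 106 and 19.7 CPM to 0.972, 0.470 and 0.116 CPM, a log2 fold change of −6.70 ± 1.11 (edgeR adjusted p = 0.00569). The spread in the dark was wide for *g9832*, yet its lowest dark library was far above each 6 h library. The CDP-diacylglycerol synthase *g9965* described above rose, as did a second one, *g780*, with 28.8, 28.1 and 21.3 CPM in the dark and 62.5, 85.7 and 88.5 CPM at 6 h, a log2 fold change of 1.60 ± 0.31 (edgeR adjusted p = 0.0102). The call of *g780* was lost without 6 h b or 6 h c (log2 1.52 to 1.54) and with limma voom (log2 1.54). Of 6 tested genes of fatty acid oxidation 1 rose, the long-chain acyl-CoA ligase *g5840*, which activates free fatty acids, from 41.3, 42.5 and 143 CPM to 384, 337 and 326 CPM, a log2 fold change of 2.21 ± 0.51 (edgeR adjusted p = 0.0206). *g5840* lost its call without 6 h a, 6 h b or 6 h c (log2 2.15 to 2.27).

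**Figure D3:**
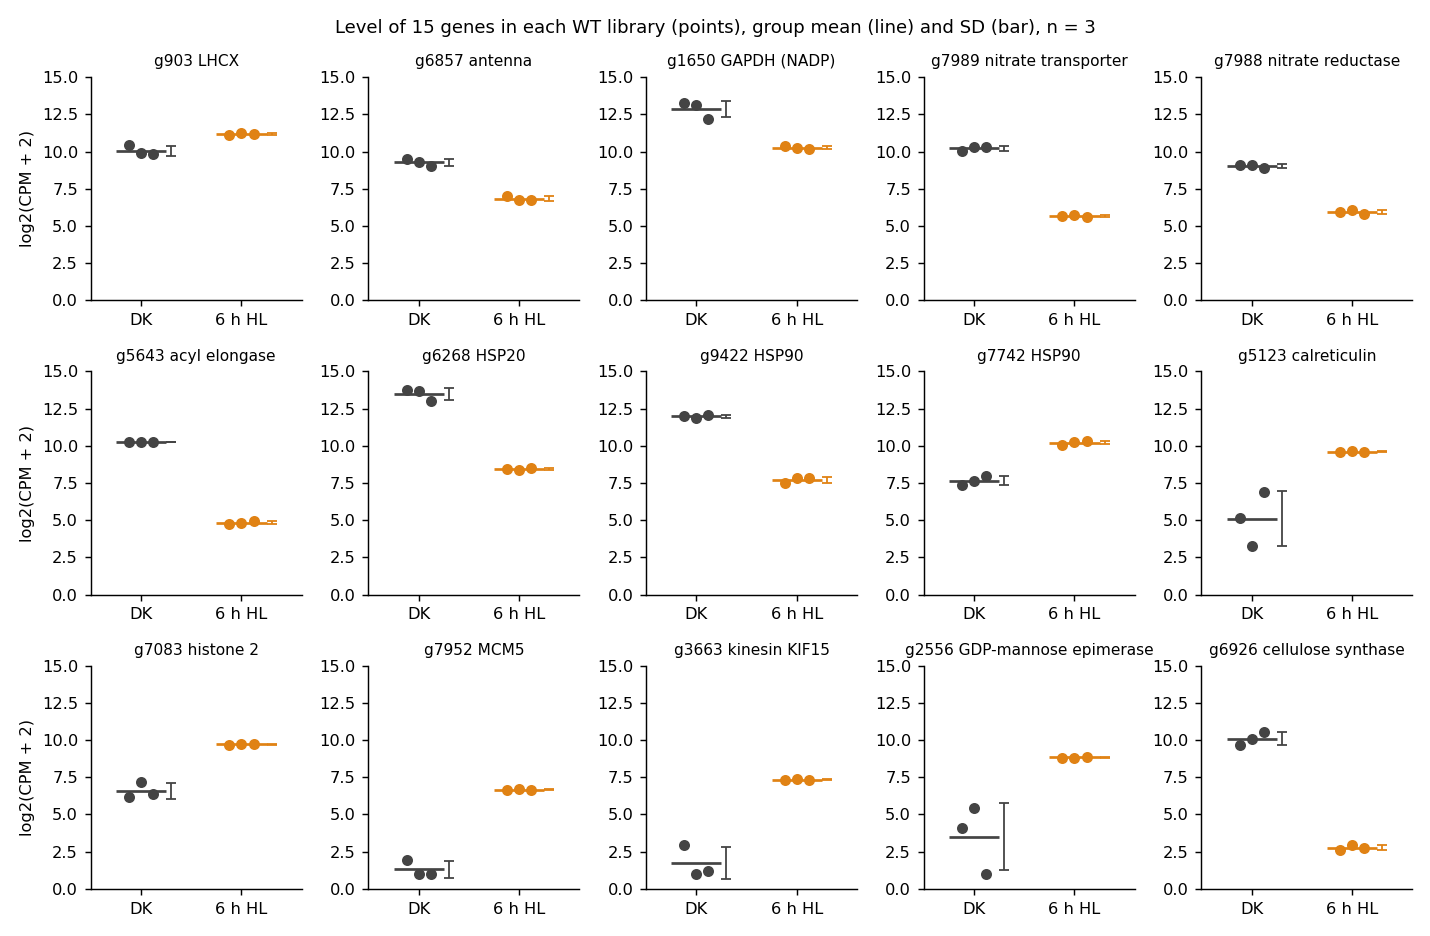
Levels of 15 genes in each WT library, as log2(CPM + 2) in the dark (DK) and after 6 h of HL; points are libraries a, b and c from left to right, lines the mean and bars the SD (n = 3). The groups are apart in every panel, and the dark libraries spread least for *g5643* and most for *g5123* and *g2556*, whose dark c libraries are the highest and the lowest.

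Light-harvesting proteins, which feed absorbed light to the photosystems, had more rises than falls. Of 22 tested members 4 rose and 1 fell, the same under all 6 scalings, and the median log2 fold change was 0.34. These were 18.2% and 4.55% of the list, against 8.94% higher and 16.7% lower among all tested genes. *g1003*, a light harvesting complex protein, had 140.0, 163 and 174 CPM in the dark and 587, 549 and 477 CPM at 6 h, a log2 fold change of 1.76 ± 0.16 (edgeR adjusted p = 0.000486). *g7398*, a chlorophyll binding protein, went from 261, 208 and 424 CPM to 876, 928 and 867 CPM, a log2 fold change of 1.58 ± 0.27 (edgeR adjusted p = 0.00674). *g903*, an antenna protein of the LHCX type in the naming of the study, went from 1407, 937 and 932 CPM to 2250.0, 2422 and 2289 CPM, a log2 fold change of 1.09 ± 0.21 (edgeR adjusted p = 0.00992). In these 3 genes each 6 h library was above each dark library. The fourth riser, *g2628*, annotated as a plastid light harvesting protein, had 745, 609 and 1570.3 CPM in the dark and 2448, 2393 and 2186 CPM at 6 h, a log2 fold change of 1.27 ± 0.36 (edgeR adjusted p = 0.0423). For *g903* the call did not hold without 6 h b or dark b and c together (log2 0.73 to 1.06) and with limma voom (log2 0.99). The call of *g2628* was lost without dark a, 6 h a, 6 h b or 6 h c (log2 1.24 to 1.32). The member that fell, *g6857*, went from 723, 638 and 527 CPM to 127, 108 and 105 CPM, a log2 fold change of −2.48 ± 0.18 (edgeR adjusted p = 0.000213).

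*HLR1* itself (*g4928*) was not called. It stood at 1314, 1519 and 2056 CPM in the dark and 1440.1, 1405 and 1314 CPM at 6 h, a log2 fold change of −0.23 ± 0.20 (edgeR adjusted p = 0.428), and the sign of this value turned with scaling, being 0.49 with library totals, where the median of all genes was 0.82. The other light-harvesting proteins that the study follows were not called either: the log2 fold change was 0.37 ± 0.20 for *g5629*, 0.28 ± 0.34 for *g6113*, 0.27 ± 0.36 for *g9713* and −0.14 ± 0.33 for *g6882* (edgeR adjusted p = 0.205, 0.589, 0.613 and 0.789), the last with a sign that turned under other scalings. In *g6113* and *g9713* dark c was the highest of the 6 libraries. *g1546*, which the study names as an LHCX, had 394, 152 and 518 CPM in the dark and 742, 673 and 573 CPM at 6 h, a log2 fold change of 0.90 ± 0.42 (edgeR adjusted p = 0.158). Each 6 h library of *g1546* was above each dark library, but its dark libraries spread widely, with dark b the lowest. Reads shared between near-identical members of this family may have been split in ways not given in the sources used here, which applies to the tubulins and enolases below too.

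Subunits of the photosystems and their electron carriers fell in 10 and rose in 1 of 24 tested members (5 and 1 under all 6 scalings), with a median log2 fold change of −0.63. Lower members made up 41.7%, against 16.7% of all tested genes. *g7670*, of the PsbQ kind, an extrinsic protein of the oxygen-evolving complex, went from 483, 564 and 236 CPM in the dark to 54.1, 44.2 and 44.3 CPM at 6 h, a log2 fold change of −3.17 ± 0.35 (edgeR adjusted p = 0.00109). *g9772*, a ferredoxin, which takes electrons from photosystem I, went from 987, 1689.8 and 774 CPM to 217, 166 and 151 CPM, a log2 fold change of −2.69 ± 0.33 (edgeR adjusted p = 0.00171). *g1803*, a thylakoid membrane protein, and *g7047*, with a PsbP domain, had log2 fold changes of −2.56 ± 0.22 and −2.02 ± 0.25, with edgeR adjusted p = 0.000431 and 0.00174. The riser was the Rieske iron-sulfur subunit of the cytochrome *b*6*f* complex, *g9470*, which links both photosystems, with 111, 150.1 and 66.6 CPM in the dark and 299, 284 and 307 CPM at 6 h, a log2 fold change of 1.44 ± 0.29 (edgeR adjusted p = 0.0128). *g9470* lost its call without 6 h a or 6 h c (log2 1.43 to 1.45).

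Genes of the Calvin cycle, which fixes CO2, fell in 14 of 25 tested members and rose in none (7 under all 6 scalings), with a median of −1.26. The fallers were 56% of the list, against 16.7% of all tested genes. *g2665*, sedoheptulose-bisphosphatase, an enzyme found only in this cycle, had 90.8, 101 and 115 CPM in the dark and 15.1, 18.5 and 21.7 CPM at 6 h, a log2 fold change of −2.47 ± 0.28 (edgeR adjusted p = 0.00125). *g1650*, annotated as an NADP-dependent glyceraldehyde-3-phosphate dehydrogenase, was the most abundant of them, with 9785, 8756 and 4732 CPM in the dark and 1300.2, 1209.8 and 1135 CPM at 6 h, a log2 fold change of −2.67 ± 0.31 (edgeR adjusted p = 0.0014). *g4805*, transketolase, which rearranges the sugar phosphates, went from 739, 823 and 925 CPM to 162, 176 and 170.0 CPM, a log2 fold change of −2.29 ± 0.15 (edgeR adjusted p = 0.000131). In all 3 the dark and 6 h libraries were well separated, and for *g1650* dark c was the lowest dark library. Phosphoribulokinase (*g3073*), which regenerates the CO2 acceptor and was picked after its value was seen, went from 1689, 2063 and 1870.2 CPM to 502, 533 and 472 CPM, a log2 fold change of −1.90 ± 0.15 (edgeR adjusted p = 0.000286). Synthesis of chlorophyll and heme had 3 of 19 members lower (15.8%) and none higher, and that of carotenoids 5 of 24 lower (20.8%) and 1 higher. The shares lower were near the 16.7% of all tested genes, and none of these 8 falls held under all 6 scalings. Among them were glutamyl-tRNA reductase (*g7608*), the entry step of chlorophyll synthesis, at −1.40 ± 0.35, and phytoene synthase (*g6239*), the entry step of carotenoids, at −1.24 ± 0.16, both log2 fold changes with edgeR adjusted p = 0.0267 and 0.00184. The riser was *g76*, related to violaxanthin de-epoxidase, the enzyme that makes photoprotective zeaxanthin, with 72.4, 91.0 and 42.8 CPM in the dark and 136, 146 and 147 CPM at 6 h, a log2 fold change of 1.05 ± 0.29 (edgeR adjusted p = 0.0387). For *g76* the call did not hold without dark a, dark c, 6 h a, 6 h b, 6 h c or dark b and c together (log2 0.90 to 1.27) and with limma voom (log2 0.99). The call of *g7608* was lost without dark c, 6 h a, 6 h b, 6 h c or dark b and c together (log2 −1.40 to −0.80) and with RLE scaling, upper-quartile scaling, library totals or library totals without the 4 abundant genes (log2 −1.17 to −0.65). *g6239* lost its call with upper-quartile scaling, library totals or library totals without the 4 abundant genes (log2 −0.96 to −0.53).

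Heat shock proteins and chaperones gave some of the clearest falls. Of 89 tested members 35 fell and 4 rose, with 25 and 4 under all 6 scalings and a median of −0.76. That was 39.3% lower and 4.49% higher, against 16.7% and 8.94% of all tested genes. *g6268*, an HSP20, a small heat shock protein that holds unfolding proteins, was among the most abundant transcripts of the night, with 13674, 12901 and 8258 CPM in the dark, and had 344, 331 and 358 CPM at 6 h, a log2 fold change of −5.07 ± 0.29 (edgeR adjusted p = 0.0001). *g9422*, an HSP90, which matures kinases and receptors, went from 4079, 3718 and 4246 CPM to 178, 223 and 230.4 CPM, a log2 fold change of −4.25 ± 0.19 (edgeR adjusted p = 6.28e-05). *g30*, an HSP70, the general folding chaperone, went from 1790.5, 1607 and 2325 CPM to 111, 108 and 107 CPM, a log2 fold change of −4.13 ± 0.20 (edgeR adjusted p = 6.97e-05). In each of the 3 the lowest dark library was more than 10 times the highest 6 h library. A second HSP90 gene went the other way. *g7742* had 161, 198 and 249.8 CPM in the dark and 1080.3, 1236 and 1252 CPM at 6 h, a log2 fold change of 2.55 ± 0.20 (edgeR adjusted p = 0.000293), with no overlap of the libraries. Calreticulin (*g5123*), a folding helper of the endoplasmic reticulum, had 33.5, 7.66 and 119 CPM in the dark and 773, 801 and 765 CPM at 6 h, a log2 fold change of 3.89 ± 0.89 (edgeR adjusted p = 0.0198), with dark libraries that spread widely. For *g5123* the call did not hold without dark a, 6 h a, 6 h b or 6 h c (log2 3.84 to 3.91).

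Redox genes were called in shares near those of all genes. Of 84 tested genes of scavenging of reactive oxygen species and thiol redox, 10 rose and 16 fell (11.9% and 19.0%, against 8.94% and 16.7% of all tested genes), 10 and 9 of them under all 6 scalings, with a median of −0.10. *g9056*, a peptide methionine sulfoxide reductase, which repairs oxidized methionines, fell from 1234, 1322 and 1322 CPM to 80.6, 72.4 and 68.5 CPM, a log2 fold change of −4.13 ± 0.15 (edgeR adjusted p = 3.63e-05). *g3163*, a peroxiredoxin-like protein, which removes peroxides, went from 1181, 1478 and 869.9 CPM to 174, 162 and 153 CPM, a log2 fold change of −2.85 ± 0.23 (edgeR adjusted p = 0.000293), and peroxiredoxin *g2619* had a log2 fold change of −2.75 ± 0.26 (edgeR adjusted p = 0.000591). The levels of *g9056* in the dark were nearly alike in the 3 libraries. *g1250*, a glutathione S-transferase, which couples toxic molecules to glutathione, rose from 7.99, 3.83 and 4.06 CPM to 106, 109 and 104 CPM, a log2 fold change of 4.31 ± 0.41 (edgeR adjusted p = 0.000581). The thioredoxin domain protein *g2977* rose from 23.4, 23.6 and 19.4 CPM to 76.6, 82.9 and 96.0 CPM, a log2 fold change of 1.94 ± 0.28 (edgeR adjusted p = 0.0031). For both risers the groups were well apart.

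Genes of translation had far more falls than rises. Of 109 tested ribosomal protein genes 52 fell and 1 rose, with 27 and 1 under all 6 scalings, and the median was −1.06. The fallers were 47.7% of these genes, against 16.7% of all tested genes. These genes are short, with a median span of 1565 bp beside 2155 bp for all tested genes. *g3478*, the small-subunit protein S27, had 768, 779 and 714 CPM in the dark and 119, 92.3 and 106 CPM at 6 h, a log2 fold change of −2.83 ± 0.15 (edgeR adjusted p = 9.02e-05), and *g4133*, the large-subunit protein L7, 402, 627 and 305 CPM in the dark and 72.7, 77.0 and 58.1 CPM at 6 h, a log2 fold change of −2.68 ± 0.30 (edgeR adjusted p = 0.00118). The one riser, *g5327*, is described as a 50S protein L4, of the organelle type, with a log2 fold change of 1.51 ± 0.33 and edgeR adjusted p = 0.0166. The call of *g5327* was lost without 6 h a, 6 h b or 6 h c (log2 1.46 to 1.60). Ribosome biogenesis had 20 of 72 members lower (27.8%) and none higher, and translation factors 17 lower (28.3%) and 2 higher of 60. The tRNA synthetases had 9 lower (21.4%) and 1 higher of 42, nearer the 16.7% of all tested genes. Under all 6 scalings 8, 7 and 3 of these falls held, beside 8.57% of all tested genes. The 3 lists thus stood out less than the ribosomal proteins. *g1164*, a protein of the H/ACA particles that modify ribosomal RNA, went from 677, 933 and 754 CPM to 94.6, 83.1 and 83.9 CPM, a log2 fold change of −3.18 ± 0.18 (edgeR adjusted p = 9.67e-05). *g8579*, elongation factor 3, known from fungi as a ribosome ATPase, went from 5885, 4692 and 2613 CPM to 396, 452 and 477 CPM, a log2 fold change of −3.32 ± 0.33 (edgeR adjusted p = 0.000727). *g1332*, eIF-5A, which helps ribosomes past difficult stretches, went from 635, 931 and 859 CPM to 126, 132 and 127 CPM, a log2 fold change of −2.65 ± 0.18 (edgeR adjusted p = 0.000184), and the alanyl-tRNA synthetase *g7069* had a log2 fold change of −3.48 ± 0.32 (edgeR adjusted p = 0.000551). The lack of overlap between dark and 6 h in these 4 genes was a condition of their choice.

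Genes of cell cycle and DNA replication rose more often than they fell. Of 118 tested members 26 rose (22.0%) and 7 fell (5.93%), against 8.94% and 16.7% of all tested genes. Under all 6 scalings 26 of the 118 members rose and 1 fell. Their median was 1.27, and with dark a alone 67 rose and 6 fell. Among the 26 risers 5 were at 0 in dark b and c. *g7952*, MCM5, a subunit of the helicase that opens replication origins, had 1.91, 0 and 0 CPM in the dark and 98.8, 101 and 100.1 CPM at 6 h, a log2 fold change of 7.07 ± 1.17 (edgeR adjusted p = 0.00572). *g9120*, a subunit of DNA polymerase epsilon, which copies the leading strand, had 2 counts in the dark libraries and 720 at 6 h (25.3, 25.0 and 34.7 CPM), a ratio of 194 (95% interval 53.5 to 1604) from counting alone. Its catalytic subunit, *g7603*, had 1.22, 0 and 0 CPM in the dark and 42.8, 54.7 and 68.7 CPM at 6 h, a log2 fold change of 6.87 ± 1.33 (edgeR adjusted p = 0.0104). These 3 replication genes were close to 0 in every dark library. *g7603* lost its call without 6 h b or 6 h c (log2 6.74 to 6.92). *g3651*, listed with DNA repair and annotated as RAD21, a subunit of the cohesin ring that holds sister chromatids together, had 3 counts in the dark and 31.6, 31.6 and 36.4 CPM at 6 h, a ratio of 151 (95% interval 51.6 to 736). For *g3651* the call did not hold without 6 h b or 6 h c (log2 7.22 to 7.33).

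Tubulins and motors, which build and move the spindle, also had more risers than fallers. Of 72 tested genes of tubulin, actin, motors and flagella 12 rose and 1 fell, the same under all 6 scalings, with a median of 1.63 and a median gene span of 2901 bp. The shares were 16.7% higher and 1.39% lower, against 8.94% and 16.7% of all tested genes. The vegetative cell of *Nannochloropsis* has no flagellum, so that the list is named by the descriptions and not by a structure. *g1388*, beta tubulin, the subunit of the spindle's microtubules, had 3.99, 0.213 and 0.625 CPM in the dark and 81.1, 99.6 and 91.1 CPM at 6 h, a log2 fold change of 5.72 ± 0.98 (edgeR adjusted p = 0.00649). *g3663*, annotated as KIF15, a kinesin that in animals keeps spindle poles apart, had 5.90, 0 and 0.313 CPM in the dark and 156, 162 and 158 CPM at 6 h, a log2 fold change of 6.12 ± 1.18 (edgeR adjusted p = 0.0103). In both, dark a held most of the few dark reads, and with dark a alone the log2 fold changes were 4.51 and 4.75. A second beta tubulin, *g8842*, had a log2 fold change of 6.39 ± 1.17 (edgeR adjusted p = 0.00861). The call of *g8842* was lost without 6 h b (log2 6.39). The actin-related *g3056*, the reference gene of the study's PCR assays, had 27.6, 32.7 and 12.8 CPM in the dark and 66.7, 71.1 and 65.7 CPM at 6 h, a log2 fold change of 1.47 ± 0.42 (edgeR adjusted p = 0.0425). *g3056* lost its call without 6 h a, 6 h b or 6 h c (log2 1.45 to 1.51) and with limma voom (log2 1.34).

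DNA repair had 8 risers and 2 fallers among 46 tested members (8 and 1 under all 6 scalings) and a median of 0.79. The shares were 17.4% higher and 4.35% lower, against 8.94% and 16.7% of all tested genes. Mismatch repair, which follows the replication fork, gave genes of both kinds. *g5143*, MSH6, went from 3.30, 6.38 and 23.1 CPM to 145, 168 and 182 CPM, a log2 fold change of 3.95 ± 0.72 (edgeR adjusted p = 0.00847). By contrast *g8497*, described as a mismatch repair protein with no closer name, fell from 93.3, 73.4 and 88.8 CPM to 7.54, 5.88 and 4.64 CPM, a log2 fold change of −3.82 ± 0.38 (edgeR adjusted p = 0.00069). A repair protein of UV damage, *g5516*, had 58.5, 61.2 and 77.9 CPM in the dark and 202, 192 and 188 CPM at 6 h, a log2 fold change of 1.56 ± 0.18 (edgeR adjusted p = 0.0014). None of the 3 had overlapping groups.

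Histones and chromatin had 6 risers and 12 fallers among 75 tested (6 and 1 under all 6 scalings), with a median of −0.05. *g7083*, a histone H2A by its KEGG entry, had 70.3, 141 and 79.7 CPM in the dark and 827, 842 and 838 CPM at 6 h, a log2 fold change of 3.11 ± 0.29 (edgeR adjusted p = 0.000579), and *g8108*, described as histone 3 and picked after its value was seen, 86.0, 47.6 and 39.7 CPM in the dark and 194, 191 and 188 CPM at 6 h, a log2 fold change of 1.72 ± 0.31 (edgeR adjusted p = 0.00837). Both genes were higher in every 6 h library than in any dark one. *g1868* has no description in the authors' table but the KEGG entry of the histone RNA hairpin-binding protein, which in animals binds the stem-loop at the end of histone mRNAs that lack a poly(A) tail. It had no count in any dark library and 64.3, 73.7 and 68.0 CPM at 6 h, at least 313-fold higher. *g7766*, a histone deacetylase, which removes acetyl marks, fell from 257, 219 and 501 CPM to 40.0, 37.7 and 32.8 CPM, a log2 fold change of −3.14 ± 0.35 (edgeR adjusted p = 0.00119).

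The secretory pathway and sugar metabolism changed in both directions. Vesicle trafficking had 24 risers and 17 fallers among 138 tested members (24 and 6 under all 6 scalings), and glycosyltransferases and cell wall genes 17 and 14 of 87 (17 and 11), with medians of 0.44 and 0.69. The shares were 17.4% higher and 12.3% lower for trafficking, and 19.5% and 16.1% for glycosyltransferases and cell wall. Among all tested genes they were 8.94% and 16.7%, so that the share of falls in the cell wall list was near that of all genes. *g9564*, a protein of the compartment between endoplasmic reticulum and Golgi, rose from 6.95, 15.9 and 17.2 CPM to 99.1, 104 and 119.6 CPM, a log2 fold change of 3.02 ± 0.41 (edgeR adjusted p = 0.00264). *g6159*, an ADP-ribosylation factor-like GTPase of the ARL2 kind, fell from 369, 425 and 399.9 CPM to 18.0, 15.5 and 10.2 CPM, a log2 fold change of −4.77 ± 0.26 (edgeR adjusted p = 9.14e-05). *g196*, a beta-1,4-mannosyltransferase, fell from 723, 507 and 445 CPM to 23.7, 28.1 and 31.7 CPM, a log2 fold change of −4.33 ± 0.26 (edgeR adjusted p = 0.000108). For each of these the groups were far apart. Besides the cellulose synthase *g6926* above, a second one, *g4066*, had 57.5, 30.8 and 7.50 CPM in the dark and 0.243, 1.06 and 0.696 CPM at 6 h, a log2 fold change of −5.54 ± 1.15 (edgeR adjusted p = 0.0134). For *g4066* the call did not hold without 6 h a, 6 h b or 6 h c (log2 −6.02 to −5.15).

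Genes of ascorbate and nucleotide sugars, the activated sugars that build walls and glycans, had 4 risers and 8 fallers of 26 (4 and 4 under all 6 scalings), with a median of −0.31. These were 15.4% and 30.8%, against 8.94% and 16.7% of all tested genes. *g2556*, annotated as a GDP-mannose epimerase, had 15.1, 40.6 and 0 CPM in the dark and 444, 445 and 469.8 CPM at 6 h, a log2 fold change of 4.58 ± 1.12 (edgeR adjusted p = 0.0247). It was at 0 in dark c and alike in the 6 h libraries. The call of *g2556* was lost without dark a, 6 h a, 6 h b or 6 h c (log2 4.57 to 4.61). *g1086*, an epimerase and reductase, went from 148, 120.2 and 138 CPM to 426, 461 and 473 CPM, a log2 fold change of 1.74 ± 0.15 (edgeR adjusted p = 0.000361). Among the fallers, *g5674*, a sugar nucleotide epimerase, went from 338, 307 and 402 CPM to 26.4, 32.9 and 33.1 CPM, a log2 fold change of −3.50 ± 0.20 (edgeR adjusted p = 9.32e-05), and *g1958*, an NAD-dependent epimerase or dehydratase, from 2461, 1977 and 486 CPM to 54.2, 55.0 and 58.5 CPM, a log2 fold change of −4.88 ± 0.62 (edgeR adjusted p = 0.00193). The dehydratase was lowest in dark c among the dark libraries, and still above the 6 h range there. *g10376*, with the KEGG entry of L-galactose dehydrogenase, a step of ascorbate synthesis in plants, had a log2 fold change of −0.35 ± 0.31 (edgeR adjusted p = 0.453), which turned positive with library totals.

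Central carbon metabolism was split by enzyme. Of 23 tested genes of glycolysis and gluconeogenesis 1 rose (4.35%) and 6 fell (26.1%), against 8.94% and 16.7% of all tested genes. Under all 6 scalings 1 rose and 4 fell, and the median of the list was −0.04. Falls were found in the last steps of glycolysis. The enolase *g10003*, which makes phosphoenolpyruvate, went from 1618, 1891 and 1349 CPM to 262, 260.3 and 241 CPM, a log2 fold change of −2.67 ± 0.18 (edgeR adjusted p = 0.000149), a second enolase (*g1329*) had a log2 fold change of −2.72 ± 0.14 (edgeR adjusted p = 8.16e-05), and pyruvate kinase (*g9175*), the last step, went from 267, 367 and 242 CPM to 28.0, 20.5 and 27.6 CPM, a log2 fold change of −3.52 ± 0.25 (edgeR adjusted p = 0.0002). Glucokinase, which traps glucose in the cell, was represented by genes of opposite course: *g1841* rose from 50.4, 52.3 and 50.3 CPM to 157, 156 and 194 CPM, a log2 fold change of 1.73 ± 0.18 (edgeR adjusted p = 0.000956), and *g872* fell from 314, 657 and 474 CPM to 132, 103 and 106 CPM, a log2 fold change of −2.08 ± 0.29 (edgeR adjusted p = 0.00282). Neither gene overlapped between the groups.

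The TCA cycle and glyoxylate shunt had 3 risers and 1 faller of 23, the same under all 6 scalings, and a median of 0.51. *g439*, malate synthase, the second enzyme of the shunt that turns acetyl-CoA into sugar precursors, went from 144, 121 and 146 CPM to 298, 330.3 and 318 CPM, a log2 fold change of 1.20 ± 0.15 (edgeR adjusted p = 0.00164), and malate dehydrogenase *g7798* from 63.6, 71.9 and 103 CPM to 213, 204 and 194 CPM, a log2 fold change of 1.36 ± 0.22 (edgeR adjusted p = 0.00562). Mitochondrial aconitase (*g743*), which isomerizes citrate, went from 1008, 1156 and 1049 CPM to 239, 249 and 276 CPM, a log2 fold change of −2.07 ± 0.14 (edgeR adjusted p = 0.000164). The groups did not overlap for any of the 3 genes. Mitochondrial respiration had 4 risers and 9 fallers of 32 (4 and 3 under all 6 scalings), with a median of −0.80. These were 12.5% and 28.1%, against 8.94% and 16.7% of all tested genes. Under all 6 scalings 8.57% of all tested genes fell, beside 3 of 32 here. Alternative oxidase (*g363*), which passes electrons to oxygen without pumping protons, went from 425, 379 and 392 CPM to 66.4, 60.6 and 72.6 CPM, a log2 fold change of −2.58 ± 0.15 (edgeR adjusted p = 0.0001), and the epsilon subunit of ATP synthase (*g2052*) from 354, 669 and 334 CPM to 110.0, 76.3 and 67.4 CPM, a log2 fold change of −2.42 ± 0.35 (edgeR adjusted p = 0.00311).

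Regulators gave some of the widest changes. Of 71 tested transcription factors 6 rose and 11 fell (6 and 8 under all 6 scalings), and 5 of the 6 risers were at 0 in dark b and c. A pair of MYB factors, *g2317* and *g8555*, had 1 count each in the dark, both in dark a, and 33.4, 38.8 and 40.3 CPM and 20.3, 28.1 and 32.4 CPM at 6 h, ratios of 513 (95% interval 91.8 to 20278) and of 369 (95% interval 66.0 to 14597). *g8128*, a heat shock transcription factor, which in other organisms switches on chaperone genes, had 3 counts in the dark and 38.8, 46.2 and 41.7 CPM at 6 h, a ratio of 192 (95% interval 65.6 to 934). All 3 factors were present in each 6 h library, with little spread. *g5012*, an MTF-1 factor, in animals the metal response factor, fell from 305, 218 and 402 CPM to 0.486, 2.82 and 1.16 CPM, a log2 fold change of −7.67 ± 0.64 (edgeR adjusted p = 0.000362). *g8501*, a sigma factor, the subunit that guides the bacterial-type RNA polymerase of the plastid to its promoters, fell from 1102, 1126 and 702 CPM to 24.6, 23.4 and 28.8 CPM, a log2 fold change of −5.25 ± 0.26 (edgeR adjusted p = 7.62e-05). *g399*, a bZIP factor, fell from 477, 784 and 192 CPM to 16.4, 14.5 and 12.9 CPM, a log2 fold change of −5.05 ± 0.55 (edgeR adjusted p = 0.00104). Its dark libraries spread widely, with dark c the lowest, and did not reach the 6 h range.

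Of 6 tested photolyases and photoreceptors 3 fell and none rose (2 under all 6 scalings). *g1656*, an aureochrome, a blue-light receptor of stramenopile algae that is itself a bZIP transcription factor, had 890.4, 693 and 124 CPM in the dark and 15.8, 19.6 and 24.5 CPM at 6 h, a log2 fold change of −4.83 ± 0.75 (edgeR adjusted p = 0.00429). *g77*, annotated as phototropin, another blue-light receptor, went from 1354, 1482 and 1791 CPM to 421, 439 and 457 CPM, a log2 fold change of −1.81 ± 0.16 (edgeR adjusted p = 0.000462). The aureochrome was lower in dark c than in dark a and b, and lower still at 6 h. Protein kinases and phosphatases had 18 risers and 34 fallers of 183 (18 and 24 under all 6 scalings). *g7013*, a protein kinase, had 624, 601 and 69.7 CPM in the dark and 0.608, 0.470 and 1.04 CPM at 6 h, a log2 fold change of −9.21 ± 1.08 (edgeR adjusted p = 0.0014), and *g98*, of the CTR1 kind, in plants a kinase of ethylene signalling, had 224, 229.9 and 334 CPM in the dark and 1.46, 1.41 and 1.86 CPM at 6 h, a log2 fold change of −7.36 ± 0.30 (edgeR adjusted p = 5.31e-05). Membrane transporters had 23 risers and 65 fallers of 344 (23 and 32 under all 6 scalings), with a median of 0.03. The shares higher and lower were 6.69% and 18.9% for the transporters, 9.84% and 18.6% for kinases and phosphatases, 8.45% and 15.5% for transcription factors and 8% and 16% for histones and chromatin, near the 8.94% and 16.7% of all tested genes.

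Protein turnover, RNA processing and amino acid synthesis are read against the shares of all tested genes, 8.94% higher and 16.7% lower. Genes of proteasome and ubiquitin had 19 risers (10.7%) and 24 fallers (13.5%) of 178, 19 and 8 of them under all 6 scalings. *g10188*, a proteasome subunit, fell from 509, 639 and 448 CPM to 76.1, 57.4 and 63.1 CPM, a log2 fold change of −3.02 ± 0.21 (edgeR adjusted p = 0.000172), and *g5784*, a regulatory subunit of the 26S particle, rose from 18.6, 5.32 and 11.6 CPM to 115, 105 and 104 CPM, a log2 fold change of 3.18 ± 0.49 (edgeR adjusted p = 0.00412). None of 11 autophagy genes was called, and their median was 0.67. Splicing and RNA helicases had 6 risers (4.76%) and 19 fallers (15.1%) of 126, 6 and 6 of them under all 6 scalings. Amino acid synthesis had 8 risers (8.16%) and 19 fallers (19.4%) of 98, 8 and 8 of them under all 6 scalings. *g4296*, the methionine synthase that needs no cobalamin, fell from 640.1, 995 and 303 CPM to 48.0, 53.8 and 57.8 CPM, a log2 fold change of −3.60 ± 0.44 (edgeR adjusted p = 0.00163), asparagine synthase *g8147* from 73.6, 61.2 and 130.4 CPM to 8.75, 8.23 and 8.01 CPM, a log2 fold change of −3.40 ± 0.42 (edgeR adjusted p = 0.00163), and *g9717*, described only by the word argininosuccinate, an intermediate of arginine synthesis, rose from 14.8, 15.7 and 16.3 CPM to 75.5, 96.4 and 97.2 CPM, a log2 fold change of 2.52 ± 0.29 (edgeR adjusted p = 0.00121). The 6 h libraries were outside the dark range in all 3.

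Some of the largest changes were in genes without a description. *g2445* and *g8870* had no count in any dark library, and 70.5, 87.7 and 86.1 CPM and 46.9, 52.4 and 55.5 CPM at 6 h, at least 371-fold and at least 235-fold higher. *g10069* had 45.0, 23.6 and 72.2 CPM in the dark and no count at 6 h, at least 372-fold lower, and *g4761* had 89.1, 43.2 and 143 CPM in the dark and a single read at 6 h. The groups did not overlap for any of the 4 genes. The 4 genes that took 15.2% of the counts of dark c were highest in that library. *g4368* had 1838, 1467 and 74970.2 CPM in the dark and 245, 358 and 876 CPM at 6 h, a log2 fold change of −5.73 ± 1.78 (edgeR adjusted p = 0.0544), and its neighbours *g4369* and *g4370* and the distant *g7618*, described as antisense to ribosomal RNA, took the same course. Without these 4 genes in the totals, and with no other scaling, the median of all genes was 0.74 and 1635 genes were higher and 867 lower. *g4369* lost its call without 6 h a, 6 h b or 6 h c (log2 −6.04 to −5.04) and with library totals or library totals without the 4 abundant genes (log2 −4.78 to −4.56). DESeq2 gave *g4369* no adjusted p (log2 −5.15). For *g4370* the call did not hold without 6 h a, 6 h b or 6 h c (log2 −5.87 to −5.22). The call of *g7618* was lost without 6 h a, 6 h b or 6 h c (log2 −6.16 to −5.28) and with library totals or library totals without the 4 abundant genes (log2 −4.97 to −4.75). DESeq2 gave *g7618* no adjusted p either (log2 −5.34). The remaining genes that the study names by strain, *g7046* and *g9910*, had log2 fold changes of −2.86 ± 0.70 and 1.14 ± 0.48 (edgeR adjusted p = 0.0245 and 0.124). *g7046* lost its call without 6 h a, 6 h b or 6 h c (log2 −2.92 to −2.82) and with library totals, library totals without the 4 abundant genes or all groups in 1 fit (log2 −2.85 to −2.18).

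With dark a as the only dark library 2662 genes were higher (27.4% of 9727) and 2169 lower (22.3%). Most lists kept their leading direction. Nitrogen uptake had 2 risers and 8 fallers, the Calvin cycle 1 and 14, photosystem subunits 1 and 10, light-harvesting proteins 6 and 1, ribosomal proteins 2 and 53, heat shock proteins and chaperones 11 and 39, DNA repair 22 and 4, and tubulin and motors 42 and 4. Other lists, with more fallers than risers over all 6 libraries, no longer had them. These were chlorophyll synthesis (5 risers and 2 fallers), glycerolipids (28 and 21), redox genes (24 and 21), histones and chromatin (16 and 16), proteasome and ubiquitin (58 and 25), transcription factors (16 and 13), kinases and phosphatases (46 and 45), transporters (88 and 87) and ascorbate and nucleotide sugars (10 and 10).

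The course over the other times places these changes, here as a description with all 15 WT libraries scaled together. Of the 846 genes higher at 6 h, 656 (77.5%) had their highest mean of the 5 times at 6 h, and of the 1576 lower genes 1026 (65.1%) had their lowest. After 1 h of HL 304 of the risers (35.9%) and 368 of the fallers (23.4%) had already moved 2-fold in the same direction. Between 6 h and 144 h, 284 risers (33.6%) and 362 fallers (23.0%) came back by 2-fold or more, and 675 (79.8%) and 1132 (71.8%) were still 2-fold away from the dark mean at 144 h. The genes were chosen from these same 6 h and dark libraries. That choice favours an extreme at 6 h, a later return and a distance from the dark mean, and so raises these shares. The shares over all tested genes were not computed, so these numbers only describe the called genes.

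Levels at the other times are given for a few genes, with no test of their timing. The mean level of the nitrate transporter *g7989* was 1251 CPM in the dark, 1414 after 1 h, 55.2 after 6 h, 71.2 after 96 h and 328 CPM after 144 h. Its 1 h libraries spread from 853 to 1733 CPM, around a dark range of 1210 to 1295 CPM. By 144 h its level had come back in part. The WT libraries of 1 h held a count for 8920 to 9543 genes, fewer than those of 6 h. The elongase *g5643* was at 1273 CPM in the dark, 628 after 1 h, 30.1 after 6 h, 141 after 96 h and 198 CPM after 144 h. The HSP90 *g7742*, which rose, had 210.4 CPM in the dark, 382 after 1 h, 1347 after 6 h, 364 after 96 h and 233 CPM after 144 h, a peak at 6 h, while the HSP70 *g30* stayed low, at 190.5 CPM after 96 h and 221 CPM after 144 h. Among the genes of division, the kinesin *g3663* went from 2.38 CPM in the dark to 25.6, 179.7, 58.1 and 34.4 CPM after 1, 6, 96 and 144 h, the highest of these again at 6 h. Ribosomal proteins stayed low. Over the 52 members that fell, the median of log2(CPM + 2), averaged over libraries, was 9.34 in the dark, 9.19 after 1 h, 7.71 after 6 h and 7.37 after 144 h.

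**Figure D4:**
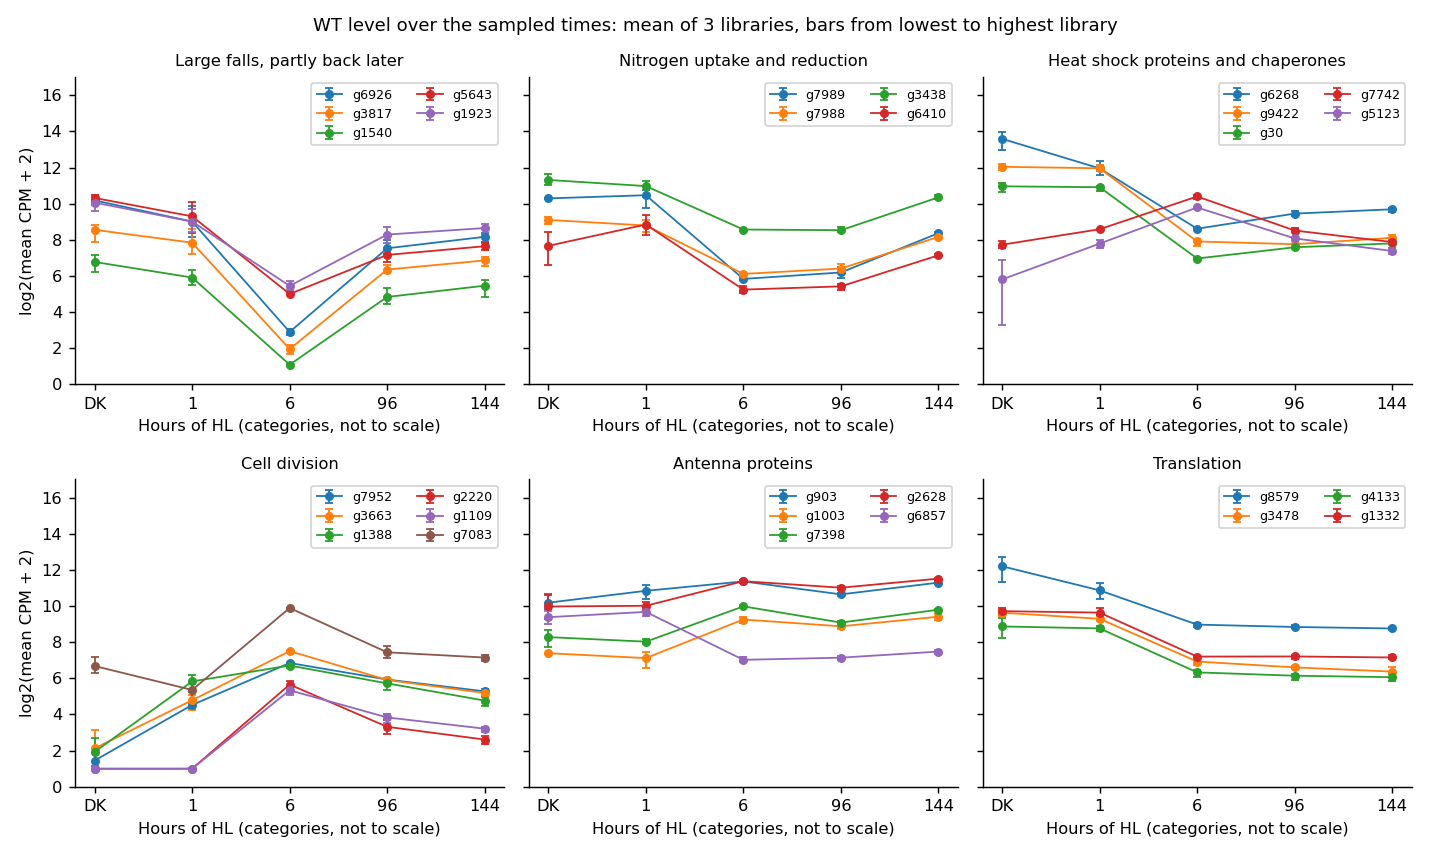
Levels of named genes in WT in the dark (DK) and after 1, 6, 96 and 144 h of HL, as log2 of the mean CPM + 2; points are means of 3 libraries and bars reach from the lowest to the highest, with the times drawn as categories. The mean of the nitrate transporter *g7989* after 1 h is near that of the dark, with a wider spread, and is lowest at 6 h. The HSP90 *g7742* peaks at 6 h, and the kinesin *g3663* is highest at 6 h.

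The same comparison in *hlr1* gave 2429 called genes of 9446 (25.7%), with 1195 higher (12.7%) and 1234 lower (13.1%). Both strains called 1547 genes, which was 63.9% of the WT calls and 63.7% of those of *hlr1*, and all 1547 moved in the same direction. The strains share no library in these comparisons, but the dark libraries of *hlr1* were uneven too. They held a count for 7184, 8951 and 9785 genes in a, b and c, against 9895 to 9939 at 6 h in *hlr1*. How far this entered the shared calls was not tested. Among the genes chosen to be named with an edgeR adjusted p under 0.05 in WT and a value in *hlr1*, 229 of 230 had the same sign there and 190 an adjusted p under 0.05. A test of the difference between the responses (the interaction of strain and light in edgeR) called none of 9662 genes. It had 366 at an unadjusted p under 0.05, while DESeq2 called 19 and limma voom 3. In *hlr1* the nitrate transporter *g7989* had a log2 fold change of −5.52 ± 0.15, HSP20 (*g6268*) of −3.60 ± 0.17, the elongase *g5643* of −5.68 ± 0.33 and the kinesin *g3663* of 5.75 ± 1.08. Transcripts counted for *HLR1* stood at 534, 901 and 762 CPM in the dark and 502, 524 and 517 CPM at 6 h in the *hlr1* libraries. For these values the *hlr1* and WT libraries of the dark and 6 h were scaled together. By list, *hlr1* had 0 risers and 7 fallers in nitrogen uptake, 2 and 18 in fatty acid synthesis, 1 and 39 in ribosomal proteins, 5 and 28 in chaperones, 35 and 2 in cell cycle and 19 and 0 in tubulin and motors. The differences between the strains in these counts were not tested.

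**Figure D5:**
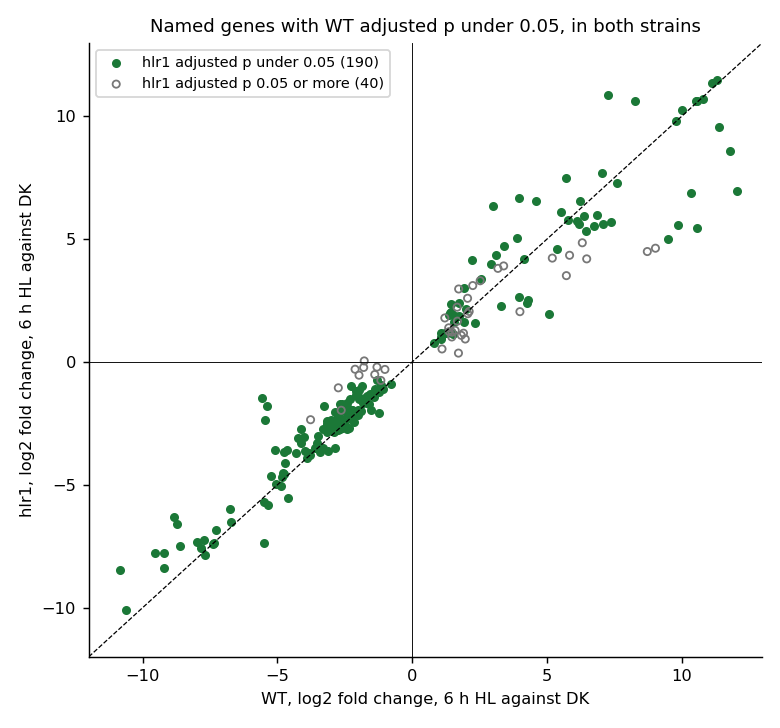
Log2 fold change after 6 h of HL against the dark in WT (horizontal axis) and in *hlr1* (vertical axis) for the 230 named genes with an edgeR adjusted p under 0.05 in WT and a value in *hlr1*; each point is a gene, filled where the adjusted p in *hlr1* is under 0.05, and the dashed line marks equal values. Of these genes 229 have the same sign in both strains, and the open points are the other 40 genes.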

How the data were processed

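The authors mapped the reads of each library with TopHat2 2.0.12 and deposited raw read counts per gene, 1 table for each time with the 3 libraries of both strains. Not given in the sources used here are the counting tool, its use of strand, how it treated reads with several matches, and the genome build. The deposited tables also hold normalized means and the authors' own tests of *hlr1* against WT (fold changes, p-values), and none of these columns was used. Gene descriptions are the authors', 5641 from NR and 352 from UniProt, and 4370 genes have none. For the light before the experiment the labels name a light/dark cycle and the methods continuous light.

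From the counts, in R 4.3.3, genes passing filterByExpr (minimum count 10) were scaled by TMM and tested 3 against 3 with the quasi-likelihood test of edgeR 4.0.16. Calls needed a p under 0.05 after Benjamini-Hochberg adjustment over all tested genes and more than a 2-fold change, and ± is the standard error of a log2 fold change. Where a group had no count, a floor of 3 counts over its libraries gives the bound, and with 1 to 3 counts the ratio has an exact 95% interval of counting error. Alternatives were DESeq2 1.42.0, other scalings and filters, voom of limma 3.58.1, a 4-fold threshold, all groups in 1 fit, a replicate block and leaving out libraries.

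The comparison, lists and named genes were chosen with earlier results of these data known. The patterns that pick list members were tightened on the wording of the descriptions. The 225 named genes were chosen by this rule. They are the 10 largest rises and falls among described genes called without overlap of the groups and with a mean of at least 10 CPM, up to 4 such members of each list in each direction, genes the study names, the 3 largest of each direction without description, and the 4 genes most abundant in a single library. A further 23 were chosen after their values were seen. One gene that the rule picks is not reported here.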

Additional observations from a re-analysis of the deposited data

How the results depend on the processing

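Of 2422 genes called (846 higher, 1576 lower), a 4-fold threshold left 1304 (538 and 766). DESeq2 called 1756 higher genes, limma voom 1687 and all groups in 1 fit 1576. With library totals 1782 were higher and 813 lower, and without the 4 abundant genes in the totals 1635 and 867. Leaving out each library in turn gave 1268 to 3606 genes (250 to 1922 higher, 1018 to 1855 lower), the fewest without a 6 h library, and leaving out dark b and c together gave 4831, of which 2662 were higher. Calls in *hlr1* ran from 1330 to 4825 in the same way. The difference of the responses gave 19 genes with DESeq2, 3 with voom and 0 to 32 with a library left out, the most without WT dark a and 1 without *hlr1* dark c. The libraries with the same letter did not deviate together (r across genes −0.097, −0.034 and −0.011). With dark libraries as unlike as these, the check cannot tell whether a letter marks a shared culture or day. The letter as a replicate block gave 1572 genes, 439 of them higher. Of 236 named genes that were called, 139 were called under every alternative at the 2-fold threshold and 153 with each library left out, and none reversed. With library totals 27 lost their call, with DESeq2 8, with the replicate block 49, and without 6 h a, b or c 70, 74 and 75. The 8 of DESeq2 include *g4369* and *g7618*, for which it gave no adjusted p. Losses with the block are not listed gene by gene above, except for *g9965* and *g5105*.

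Values that were not called changed sign. *g4928* had a log2 fold change of 0.047 with upper-quartile scaling, 0.49 with library totals, 0.39 without the 4 abundant genes in the totals, 0.087 without dark b and c, and −0.25 to 0.058 with a library left out. *g6882* had 0.086 with DESeq2 and 0.087 with RLE scaling, 0.14 with upper-quartile scaling, 0.60 with library totals, 0.48 without the 4 genes, 0.26 with voom, 0.45 without dark b and c, and −0.32 to 0.35 with a library left out. *g10376* had 0.37 with library totals and 0.28 without the 4 genes, and *g6874* 0.15 and 0.041. The cause was not tested. Of 1188 counts of list members under the alternatives 746 were within 1.5 times the count given. Among the risers 112 had no count in any dark library, and these were all the tested genes without one.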

Other observations

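DESeq2 called 19 genes for a difference between the responses of the strains and edgeR none, and 5 of the 19 are given here as values. *g6268* (HSP20) had a log2 fold change of −5.07 in WT and −3.60 in *hlr1*, a difference (*hlr1* minus WT in a joint fit) of 1.16 ± 0.28 with edgeR adjusted p = 0.979 and DESeq2 adjusted p = 0.00057. *g30* (HSP70) had −4.13 and −2.73 (edgeR adjusted p = 0.732, DESeq2 adjusted p = 7e-05), and *g6486*, ClpB, a chaperone that dissolves protein aggregates, −3.25 and −1.84 (DESeq2 adjusted p = 0.0274). By these values the 3 chaperone genes fell less in *hlr1* than in WT. The nitrate transporter *g7989* had −4.62 in WT and −5.52 in *hlr1* (edgeR adjusted p = 0.536, DESeq2 adjusted p = 7.45e-06). The histone gene *g8108* had 1.72 in WT and 0.36 in *hlr1* (edgeR adjusted p = 0.979, DESeq2 adjusted p = 0.0109). The 5 genes were picked after their values were seen.

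The libraries of the dark group differ in the number of genes with a count and in the share of 4 genes, and there is no time-matched control without HL, so that no change at 6 h can be assigned to HL alone. Roles of genes come from descriptions by similarity to proteins of other organisms, and no sequence is shown because none for these genes was at hand.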
